A study of Mus musculus with 56 samples.

Results

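The 6 genes Il1rl1, Il1rap, Myd88, Gata3, Areg and Klrg1 were chosen around tissue regulatory T cells (Tregs) that carry ST2, the receptor for interleukin 33 (IL-33). Il1rap and Myd88 serve its signalling, and the rest are taken as markers of such cells. The 6 genes were taken by symbol from the 55011 gene symbols of a count table. All 6 passed the filter on low counts in each of the 20 comparisons made. The table covers 56 bulk RNA libraries of mouse Tregs, 25 from visceral adipose tissue (VAT), 26 from spleen and 5 from cultures, in a series on Treg transcription in obesity. Per the labels, the VAT and spleen libraries came from C57BL/6 mice with the T cell receptor transgene vTreg53 Tg+, and clonotype+ Tregs were sorted 2 times to give 1000 cells per library. These mice were fed one of 2 diets, abbreviated HFD and NCD, from 12 weeks of age and taken after 2, 4, 8 or 16 weeks, or were taken at week 0. Groups held 3 libraries each, except that VAT HFD week 4, VAT NCD week 16, spleen NCD week 4 and the cultures with interferon-α (IFNα) held 2. Sorted diet-group cells thus carried 1 transgenic receptor, and the labels call their source recipient mice without saying what was transferred. The cultured cells came from C57BL/6 mice aged 8 to 10 weeks that carried the knock-in alleles PPARgamma-tdT (KI/KI) and, as a reporter on the X chromosome, Foxp3-GFP (KI/y), which had received IL-33 2 times within a week to enlarge the VAT Treg pool. Their PPARγ(tdT)+ VAT Tregs were kept for 3 days in IL-2 at 2000 U/ml plus IL-33 at 10 ng/ml. IFNα was added at 50 ng/ml to 2 cultures and left out of 3, and GFP+ cells were then sorted. Both culture arms therefore received IL-33 before and during culture.

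ST2, the protein of Il1rl1, binds IL-33, a cytokine that stromal and barrier cells release when they are damaged. Binding brings in the shared co-receptor encoded by Il1rap, and the receptor tails recruit the adaptor MyD88, which relays the signal through IRAK kinases and TRAF6 to NF-κB and MAP kinases. Tregs of adipose tissue are known for high ST2 and expand in response to IL-33. GATA3, a zinc-finger transcription factor best known from type 2 helper T cells, takes part in Il1rl1 expression in Tregs. Areg encodes amphiregulin, a ligand of the epidermal growth factor receptor through which tissue Tregs act on repair, and Klrg1 encodes an inhibitory lectin-like receptor that binds cadherins and marks differentiated effector T cells.

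In GENCODE M21 (mm10), Il1rl1 (ENSMUSG00000026069.15) lies at chr1:40429570-40465415 on the plus strand and Il1rap (ENSMUSG00000022514.14) at chr16:26581704-26730117 on the plus strand. Myd88 (ENSMUSG00000032508.8) lies at chr9:119335934-119341411 on the minus strand. Gata3 (ENSMUSG00000015619.10) is at chr2:9857078-9890034 on the minus strand, Areg (ENSMUSG00000029378.5) at chr5:91139599-91148432 on the plus strand and Klrg1 (ENSMUSG00000030114.8) at chr6:122270596-122282882 on the minus strand. All 6 are protein-coding. The library kit does not mark strand, and Myd88 shares 290 exon bases (11.3% of its exon length) with the opposite-strand gene Acaa1a, so that part of its count is uncertain. Gene counts also add together the membrane and soluble forms of ST2, which Il1rl1 makes as separate transcripts.

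The promoters of Il1rl1 and Areg are shown because these 2 genes differed most between VAT and spleen on the log2 scale, and because GATA3, a DNA-binding factor, is among the members. Sequences are from RefSeq (GRCm38.p6), 250 bases up to the base before the start, 5′ to 3′ on the plus strand. Capitals in Il1rl1 (chr1:40429320-40429569) mark GATA letters on either strand, searched as AGATAA and AGATAG beginning with A and as TGATAA and TGATAG beginning with T. Capitals in Areg (chr5:91139349-91139598) mark the cyclic AMP response letters TGACGTCA and the TATA letters TATAAAA.
Il1rl1: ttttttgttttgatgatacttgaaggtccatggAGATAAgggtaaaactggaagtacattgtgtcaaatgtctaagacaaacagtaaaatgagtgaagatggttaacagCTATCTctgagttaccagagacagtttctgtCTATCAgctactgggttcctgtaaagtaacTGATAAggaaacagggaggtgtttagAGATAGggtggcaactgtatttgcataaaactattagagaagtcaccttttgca
Areg: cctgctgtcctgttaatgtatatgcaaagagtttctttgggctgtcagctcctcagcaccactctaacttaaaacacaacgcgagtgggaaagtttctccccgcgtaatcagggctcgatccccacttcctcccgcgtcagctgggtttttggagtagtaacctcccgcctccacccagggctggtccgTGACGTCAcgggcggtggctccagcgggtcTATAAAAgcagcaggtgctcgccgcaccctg

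The Il1rl1 window held 5 GATA matches, beginning at positions -217, -141, -110, -80 and -54 from the start. Of 32851 mouse promoter windows of this length, 14 (0.0426%) held 5 or more, and 26.5% held at least 1. A later Il1rl1 start (chr1:40439629) had 1 match in its window, at -103. In Areg the cyclic AMP response letters began at -61, present in 1.55% of windows, and the TATA letters at -31, present in 4.98%. The windows of Gata3, Myd88 and Il1rap held none of these letters, and the AP-1 letters TGANTCA (either strand, in 6.749% of windows) were in none of the member windows searched. A match describes the letters and is not evidence of a bound site.

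Total counts per library were 3319873 to 6091439 in VAT, 3248686 to 5826965 in spleen and 5408696 to 8764390 in culture. Levels are CPM, library-size-scaled counts with TMM factors, listed in the order of replicate numbers, and 3 counts, taken as the floor, were worth 0.411 to 0.985 CPM. Differences are given on the log2 scale with the SE of the edgeR fit, and called at an adjusted p under 0.05 over all genes tested. The labels do not say whether replicates came from separate mice, so a p-value here covers the spread among libraries, which may be technical. Every library carries the VAT tissue label, also those from spleen by title, and the titles were used. Pparg, the nuclear receptor gene of VAT Tregs, was at 18.2 to 129 CPM in the VAT libraries and 0 to 7.11 CPM in the spleen libraries. Foxp3, the lineage factor of Tregs, was at 914 to 1249 CPM in VAT and 640 to 841 CPM in spleen. Adipocyte, stromal and macrophage marker lists each summed to no more than 22.2 CPM in any library.

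Without HFD (week 0 and the 4 NCD weeks), VAT and spleen Tregs differed in 4 of the 6 members, all higher in VAT, while the co-receptor and adaptor genes did not pass the test. Areg differed most, then Il1rl1, Klrg1 and Gata3. Il1rl1 was at 486 to 1230 CPM (median 737) in the 14 VAT libraries and 12.6 to 47.8 CPM (median 25.4) in the 14 spleen libraries. No library of either tissue came near the range of the other. Areg was at 379 to 1905 CPM (median 1058) in VAT and 0 to 7.33 CPM (median 1.04) in spleen, so spleen libraries lay at or little above the floor. Gata3 was at 549 to 1590 CPM (median 1016) in VAT and 207 to 345 CPM (median 272) in spleen, and the ranges stayed apart. Klrg1 was at 1311 to 2446 CPM (median 1933) in VAT and 81.5 to 415 CPM (median 147) in spleen, also without overlap. Il1rap averaged 19.1 ± 5.17 CPM in VAT and 20.4 ± 5.16 CPM in spleen (SD, n = 14 each). Myd88 averaged 88.3 ± 8.12 CPM in VAT and 89.3 ± 12.5 CPM in spleen (SD, n = 14 each). For both of these genes the ranges of the tissues overlapped over most of their width.

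The fitted differences between VAT and spleen were 4.96 ± 0.20 for Il1rl1 (edgeR adjusted p = 3.97e-21), 9.94 ± 0.31 for Areg (4.04e-24), 1.93 ± 0.098 for Gata3 (3.31e-19) and 3.59 ± 0.21 for Klrg1 (1.14e-16). Il1rap was at -0.098 ± 0.13 (edgeR adjusted p = 0.541) and Myd88 at -0.012 ± 0.070 (0.906). The Areg value depends on how counts near 0 are treated, since 4 of the spleen libraries had no Areg count. So many genes differ between these tissues that 59.1% of the 15601 tested were called, and 4 called members of 6 are to be read against that share. With HFD, where 47.4% of genes were called, the same 4 members passed, at 4.13 ± 0.20 for Il1rl1, 8.04 ± 0.27 for Areg, 2.15 ± 0.11 for Gata3 and 2.98 ± 0.21 for Klrg1. In bulk RNA, fewer cells that express a gene and less of its RNA per cell cannot be told apart. Immediate early and heat shock genes, switched on by activation or stress, moved with tissue, 18 of 19 being higher and 1 lower in VAT, with sums of 19637 to 37063 CPM in VAT without HFD and 1639 to 2510 CPM over all spleen libraries. Their part in the result was not tested. Their mean level was 3.71 to 4.52 log2 CPM in the spleen libraries and 6.64 to 8.71 in the VAT libraries, without overlap. As a covariate it can thus hardly be told apart from tissue, and a fit with it cannot decide their part. In that fit none of the 4 calls held (Il1rl1 2.25, edgeR adjusted p = 0.731, Areg 6.10, 0.238, Gata3 0.47, 0.966, Klrg1 2.06, 0.824), and 4 of all genes were called. Markers of group 2 innate lymphoid cells, which also carry ST2 and make amphiregulin, were higher in VAT in 4 of 5 tested genes. They summed to 93.2 to 159 CPM in VAT without HFD and 14.8 to 55.0 CPM in spleen, and their part was not tested either. Of their cytokine genes, Il13 had no count in 17 of 25 VAT libraries and in 26 of 26 spleen libraries. Il5 had none in 2 of 25 VAT libraries, where it reached 65.3 CPM, and none in 18 of 26 spleen libraries. Nmur1, Il17rb, Arg1 and Il9r had counts in every VAT library. Mast cell markers, the other ST2-rich type, summed to 1.88 to 13.1 CPM in VAT without HFD. Mcpt4 had no count in any VAT library, and Cma1, Fcer1a, Ms4a2 and Tpsb2 had none in 22 or 23 of 25. Hdc had counts in every VAT library (up to 13.4 CPM), while Kit and Cpa3 had none in 2 and 4 of 25.

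**Figure D1:**
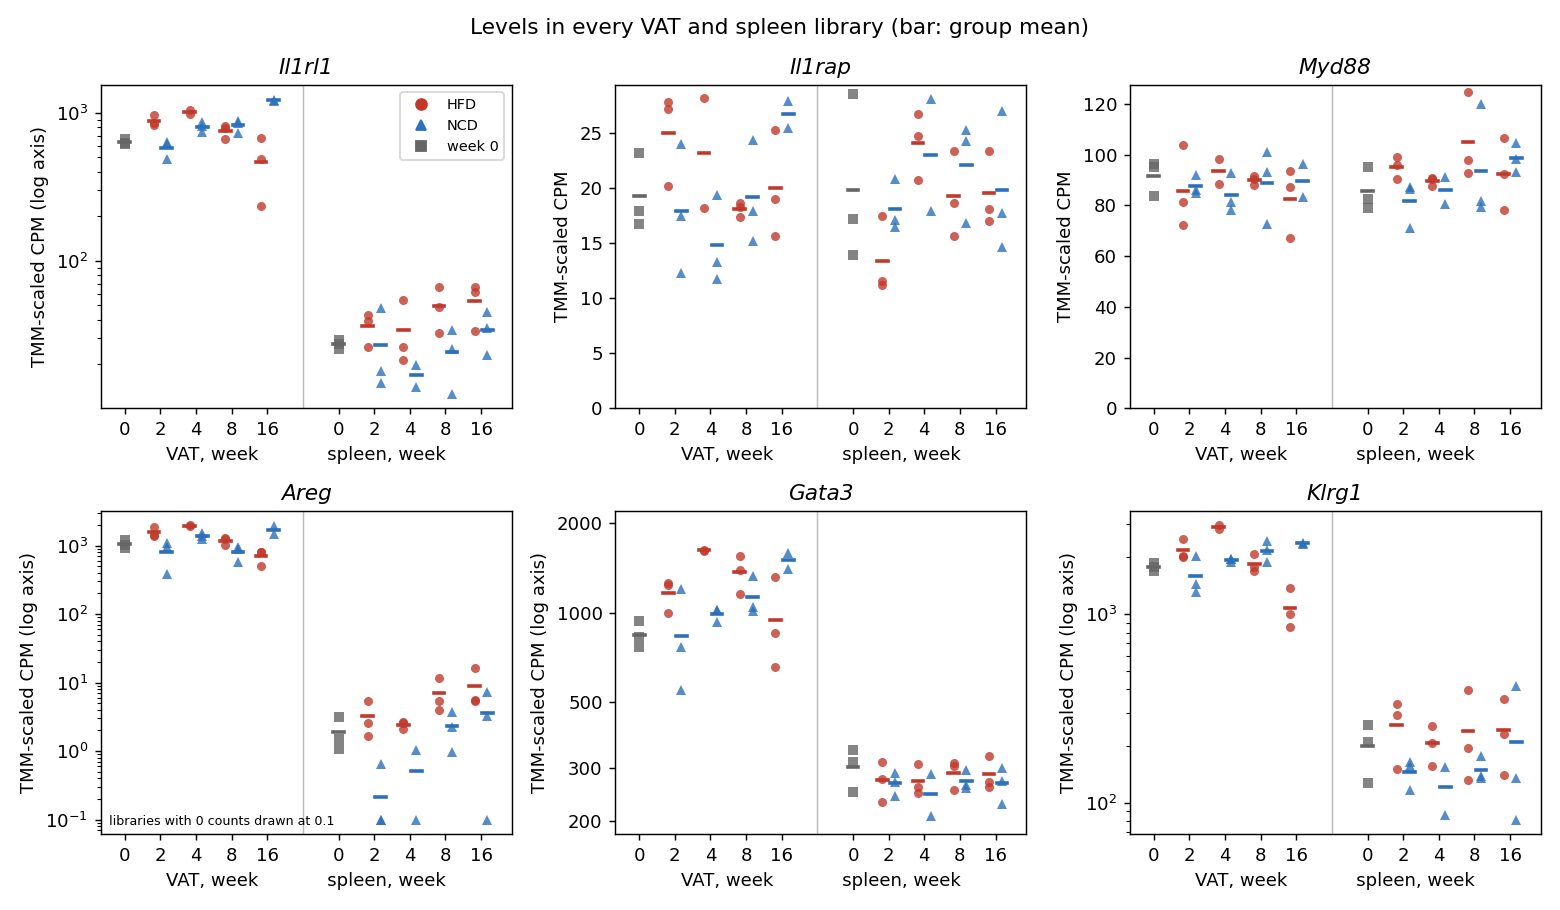
Each point is 1 library and each bar a group mean, in TMM-scaled CPM, for the 6 genes by tissue and week (HFD red circles, NCD blue triangles, week 0 grey squares). The axes of Il1rl1, Areg, Gata3 and Klrg1 are logarithmic and their VAT and spleen libraries stay apart, while Il1rap (VAT 11.8 to 28.2 CPM) and Myd88 (VAT 67.2 to 104 CPM) overlap with spleen.

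Ranked over all 20 groups, Il1rl1 was highest in VAT NCD week 16 (mean 1216 CPM, 1202 and 1230 in its 2 libraries), which stood above VAT HFD week 4 (1016 ± 40.4, n = 2) without overlap. From VAT HFD week 4 down to VAT HFD week 16 (469 ± 224, n = 3) each group overlapped its neighbour, and a gap then separated these from all spleen groups, led by spleen HFD week 16 (53.9 ± 17.8, n = 3). Klrg1 was highest in VAT HFD week 4 (2890 ± 99.0, n = 2) and lowest in spleen NCD week 4 (121 ± 49.1, n = 2). Areg was highest in VAT HFD week 4 too (1964 ± 14.1, n = 2), and in the order of means the cultures stood between all VAT groups and all spleen groups, with no library shared in range with VAT. For Gata3 the cultures came first, at 2163 ± 166 CPM (SD, n = 2) with IFNα and 1679 ± 16.3 CPM (SD, n = 3) without. Neighbouring groups overlapped in 17 of 19 steps for Il1rl1, 15 for Areg, 15 for Gata3, 16 for Klrg1, 17 for Myd88 and 19 for Il1rap, so for Il1rap no step of the order exceeded the spread. Per kilobase of exon, the VAT levels were 1369 CPM for Klrg1, 981 for Areg, 282 for Gata3, 112 for Il1rl1, 34.1 for Myd88 and 1.77 for Il1rap. The lengths join all annotated exons of a gene, 11360 bases for Il1rap and 1215 for Areg. By that measure the co-receptor gene was the scarcest of the 6 in VAT. In spleen it stood at 1.74, below Areg at 2.84 and Il1rl1 at 4.98. That spleen order depends on the lengths, since in CPM Il1rap stood above Areg there (means of 19.8 and 3.45).

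Counts for the other genes of the pathways between tissues are to be read against the 59.1% of all genes called. The relay from MyD88 to NF-κB was mixed: of 21 genes 7 were higher and 5 lower in VAT, with a list median of 0.020 against -0.042 over all genes. Genes of inhibitors were among those higher. Nfkbia, encoding the NF-κB inhibitor IκBα, averaged 4927 ± 926 CPM in VAT and 739 ± 48.6 CPM in spleen (SD, n = 14 each), a difference of 2.75 ± 0.058. Tnfaip3, encoding the A20 inhibitor, differed by 4.96 ± 0.18, Irak2 by 0.99 ± 0.070 and Irak3, encoding an inhibitory IRAK, by 1.87 ± 0.20. Of the IL-1 family and its other receptors 4 of 8 tested genes were higher and 2 lower, among them Il18rap (2.87 ± 0.16), a chain of the IL-18 receptor, and the decoy receptor gene Il1r2 (1.74 ± 0.28). In the amphiregulin family 4 of 9 tested genes were higher and none lower by edgeR, yet all were scarce: Hbegf averaged 6.17 ± 3.00 CPM in VAT and 3.28 ± 2.40 CPM in spleen, Btc 3.75 ± 1.93 and 1.29 ± 1.25. Of GATA factors and type 2 genes 3 of 7 were higher and 2 lower. Rora, encoding a nuclear receptor of type 2 and tissue lymphocytes, averaged 1105 ± 129 CPM in VAT and 129 ± 41.7 CPM in spleen (3.12 ± 0.11). Gata1, a GATA factor best known from red cell and mast cell precursors, ran the other way from Gata3, at 1.42 ± 1.41 CPM in VAT and 63.0 ± 15.4 CPM in spleen (-5.56 ± 0.33). Of the killer lectin receptors and their partners 5 of 10 tested were higher and 1 lower. Klrk1, encoding the activating receptor NKG2D, averaged 15.4 ± 10.8 CPM in VAT and 0.0718 ± 0.213 CPM in spleen, where it was under the floor, and Ptpn6, which encodes the phosphatase SHP-1, was the lower one (-1.11 ± 0.055).

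In VAT, Il1rl1, Areg, Gata3 and Klrg1 had higher mean levels with HFD at weeks 2 and 4, where no member passed the test over all VAT groups, and Il1rl1, Areg and Klrg1 were lower with HFD at week 16. At week 2 Il1rl1 was at 966, 823 and 858 CPM with HFD and 636, 486 and 619 CPM with NCD, every HFD library above every NCD library. Areg was at 1881, 1426 and 1364 CPM with HFD and 379, 950 and 1089 CPM with NCD, again without overlap. How many of all genes separate in this way was not counted. Klrg1 was at 2495, 2002 and 2044 CPM with HFD and 2036, 1311 and 1447 CPM with NCD, with 1 NCD library inside the HFD range. These were differences of 0.60 ± 0.23 (edgeR adjusted p = 0.374), 0.94 ± 0.30 (0.275) and 0.44 ± 0.15 (0.293), and Gata3 was at 0.46 (0.535). None of the 6 members passed at week 2 in edgeR, where 0.0565% of genes did, nor in DESeq2 or limma voom, and 3 were below an unadjusted p of 0.05.

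At week 4 the HFD libraries of 4 members lay above all NCD libraries, and the share of all genes that separate in this way was not counted. Il1rl1 was at 1044 and 987 CPM with HFD and 862, 816 and 739 CPM with NCD. Areg was at 1954 and 1974 CPM with HFD and 1255, 1363 and 1531 CPM with NCD. Gata3 was at 1616 and 1626 CPM with HFD and 1020, 1021 and 929 CPM with NCD, a difference of 0.72 ± 0.26 (edgeR adjusted p = 0.383). In Klrg1 the 2 HFD libraries had 2820 and 2960 CPM, against 1899, 1968 and 1967 CPM with NCD, a difference of 0.58 ± 0.17 (edgeR adjusted p = 0.228). None of the 6 passed in edgeR, DESeq2 or limma voom at week 4, where edgeR called 0.0212% of genes, and 3 were below an unadjusted p of 0.05. Fitted on these 5 libraries alone, Gata3 and Klrg1 did pass (edgeR adjusted p = 0.0148 and 0.0284), and 34 genes were called in all, against 3 in the main fit.

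At week 8 the diets overlapped in all members but Areg, and the share of all genes that separate was not counted. Areg was at 1031, 1292 and 1238 CPM with HFD and 897, 968 and 573 CPM with NCD, without overlap (0.54, edgeR adjusted p = 0.465). Il1rl1 was at 670, 794 and 814 CPM with HFD and 734, 853 and 883 CPM with NCD. Klrg1 was at 1771, 2082 and 1706 CPM with HFD and 1886, 2446 and 2192 CPM with NCD. The HFD libraries of Il1rl1 and Klrg1 lay within or below the NCD range. No member passed in edgeR, DESeq2 or limma voom, none was below an unadjusted p of 0.05, and edgeR called 1.33% of all genes.

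At week 16 the HFD libraries lay below both NCD libraries in 5 of the 6 members, all but Myd88. The share of all genes that separate in this way was not counted. By edgeR, 9.24% of all genes were called (611 higher, 698 lower). Areg was at 504, 794 and 810 CPM with HFD and 1905 and 1462 CPM with NCD, and fell by 1.25 ± 0.32 on the log2 scale (edgeR adjusted p = 0.0190). Il1rl1 was at 235, 681 and 491 CPM with HFD and 1230 and 1202 CPM with NCD, and Klrg1 at 1003, 1386 and 860 CPM with HFD and 2379 and 2371 CPM with NCD. Il1rl1 fell by 1.37 ± 0.25 (edgeR adjusted p = 0.00131) and Klrg1 by 1.12 ± 0.16 (7.98e-05). Gata3 was at 658, 1322 and 856 CPM with HFD and 1590 and 1405 CPM with NCD, a difference of -0.66 ± 0.26 that missed the threshold (edgeR adjusted p = 0.145). Without HFD replicate 2, its highest HFD library, Gata3 passed at -0.98 (edgeR adjusted p = 0.0121). Il1rap was at 15.6, 19.0 and 25.3 CPM with HFD and 28.0 and 25.5 CPM with NCD (-0.42 ± 0.30, edgeR adjusted p = 0.459). Myd88 was at 67.2 to 93.7 CPM with HFD and 83.3 to 96.1 CPM with NCD (-0.11 ± 0.17, edgeR adjusted p = 0.769). The receptor gene and the 2 effector genes thus passed, and the co-receptor, adaptor and GATA3 genes did not.

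The week 16 calls rest on 2 NCD libraries that were themselves high. Il1rl1 in them stood above every other VAT group, and without either of them, or without HFD replicate 1, Areg missed the threshold (edgeR adjusted p = 0.0520 to 0.183). Fitted on the 5 week 16 libraries alone, Il1rl1 was at -1.36 with an edgeR adjusted p of 0.101. Immediate early and heat shock genes moved with this contrast, 0 of 19 higher and 12 lower with HFD by edgeR, with sums of 11832 to 23476 CPM with HFD and 36529 to 37063 CPM with NCD. Their mean did not overlap between the arms, at 6.64 to 7.66 log2 CPM with HFD and 8.71 and 8.62 with NCD. With it as a covariate 92 genes were called. Il1rl1 was then at -0.24, Areg at -0.43 and Klrg1 at -0.83 (edgeR adjusted p = 0.838, 0.844 and 0.255). The part of the activation and stress genes in the result was not tested. Resting lymphoid T cell genes moved the opposite way, 6 of 9 being higher with HFD and none lower by edgeR (Tcf7 2.53, Ccr7 2.89), with sums of 1255 to 2285 CPM with HFD and 1177 to 1278 CPM with NCD. Of 5 tested markers of group 2 innate lymphoid cells 1 was higher and 2 were lower, with sums of 38.8 to 72.8 CPM with HFD and 132 to 159 CPM with NCD. Of 3 tested mast cell markers none passed in edgeR, and the list summed to 17.5 to 19.4 CPM with HFD and 4.16 to 10.2 CPM with NCD. B cell markers were higher in 1 of 4 tested (Cd79b 2.86), with sums of 1669 to 2493 CPM with HFD and 356 to 365 CPM with NCD, most of it Ighm. Of 6 tested natural killer and CD8 cell markers Prf1 was higher (2.01), while Klrb1c (-2.36) and Klrd1 (-0.39) had negative values and were not called. Pecam1 was higher as the only endothelial marker tested (1.72), while Cdh5 had no count in 18 of 25 VAT libraries. The part of these cell types in the result was not tested. Foxp3 averaged 1003 ± 75.6 CPM with HFD (SD, n = 3) and 1092 ± 106 CPM with NCD (SD, n = 2).

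**Figure D2:**
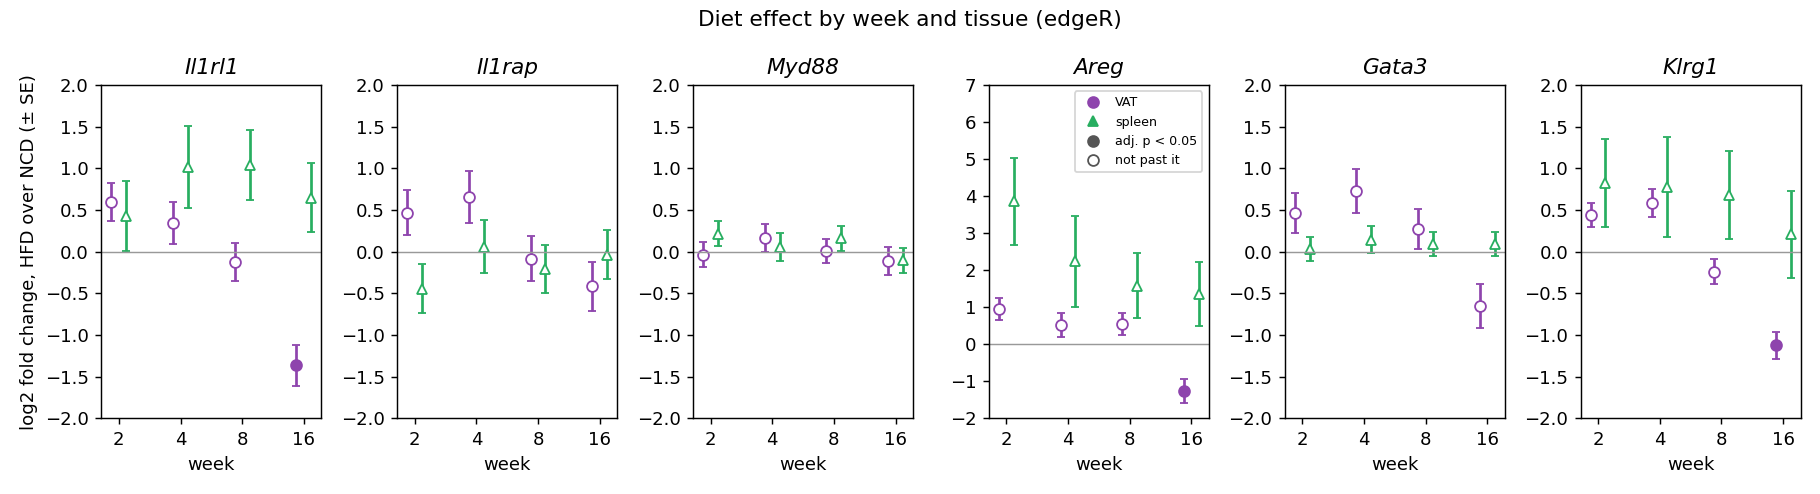
Log2 fold change of HFD over NCD ± SE for each gene at weeks 2, 4, 8 and 16, in VAT (purple circles) and spleen (green triangles), filled where the edgeR adjusted p was under 0.05. The 3 filled points are Il1rl1 (-1.37), Areg (-1.25) and Klrg1 (-1.12) in VAT at week 16, and the Areg panel has a wider scale.

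The change of the diet effect with time was tested directly, as the week 16 effect minus the week 2 effect in VAT, where 7.29% of genes were called. Klrg1 differed by -1.56 ± 0.22 (edgeR adjusted p = 9.41e-05), Il1rl1 by -1.96 ± 0.34 (0.00130) and Areg by -2.20 ± 0.44 (0.00472). All 3 calls were lost with the mean of the activation and stress genes as a covariate (edgeR adjusted p = 0.842, 0.678 and 0.279 for Il1rl1, Areg and Klrg1). In that fit 3 genes were called in all, against 1032 without the covariate. Gata3 was at -1.12 ± 0.36 and missed the threshold (edgeR adjusted p = 0.0663), and it passed in DESeq2 and in limma voom. Within HFD alone, week 16 against week 2 (7.3% of genes called) gave -0.90 ± 0.23 for Il1rl1, -1.13 ± 0.30 for Areg and -0.996 ± 0.15 for Klrg1 (edgeR adjusted p = 0.0204, 0.0266 and 2.04e-04). The Il1rl1 call was lost without HFD week 2 replicate 1 or HFD week 16 replicate 3, and the Areg call without replicate 1 of either week (edgeR adjusted p up to 0.0780 and 0.106). Within NCD, week 16 against week 0 (0.713% of genes called) gave 0.92 ± 0.25 for Il1rl1 and 0.82 for Gata3, which missed the threshold in edgeR (adjusted p = 0.0907 and 0.166) and passed it in DESeq2 and limma voom. The 101 genes called in that contrast became 1 to 37 on leaving out 1 library. Il1rl1 was then at 1230 and 1202 CPM at NCD week 16, against 671, 613 and 629 CPM at week 0, without overlap. These 3 contrasts share libraries and are not independent of each other or of the week 16 comparison. Averaged over the 4 weeks with equal weight, none of the 6 members passed in edgeR, DESeq2 or limma voom, and none was below an unadjusted p of 0.05, where edgeR called 4.2% of genes. Those averages were -0.14 for Il1rl1, 0.19 for Areg, 0.20 for Gata3 and -0.086 for Klrg1.

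The other pathway genes at week 16 in VAT are to be read against the 9.24% of all genes called. Of 21 relay genes none was higher and 3 were lower with HFD by edgeR (list median -0.012 against 0.024 over all genes). Irak3 was at 15.8 to 27.9 CPM with HFD and 52.2 to 61.2 CPM with NCD (-1.33 ± 0.24, edgeR adjusted p = 3.84e-04). Nfkbia averaged 3609 ± 987 CPM with HFD and 6564 ± 265 CPM with NCD (-0.85 ± 0.16, edgeR adjusted p = 7.83e-04), and Tollip, an inhibitor of IRAK1, fell by 0.52 ± 0.16. Of 6 tested IL-1 family genes 2 were higher and 1 lower. Il18r1, encoding the binding chain of the IL-18 receptor, was at 81.4 to 169 CPM with HFD and 18.5 to 26.2 CPM with NCD (2.38 ± 0.45, edgeR adjusted p = 0.00170), the opposite direction to Il1rl1, a receptor gene of the same family. The decoy gene Il1r2 was higher too, at 152 to 304 CPM with HFD and 70.5 to 111 CPM with NCD (1.26 ± 0.37), and Il18 was lower (-1.28 ± 0.35). Rora, the only called gene of 7 tested in the GATA and type 2 list, was at 583 to 704 CPM with HFD and 1187 to 1433 CPM with NCD (-1.04 ± 0.11, edgeR adjusted p = 9.80e-07). In the amphiregulin family the receptor gene Erbb2 was called among 9 tested on counts near the floor, and among 9 Klrg1 relatives Ptpn6 was higher (0.74 ± 0.14, edgeR adjusted p = 9.20e-04).

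Averaged over the 4 weeks in VAT, 1 relay gene (Nfkb1, 0.29 ± 0.079) and 2 IL-1 family genes (Il1r2, 0.75 ± 0.17, and Il1rn, 4.30, encoding the IL-1 receptor antagonist) were higher with HFD. Counts for these lists are to be read against the 4.2% of all genes called. Rora was lower, at 923 ± 244 CPM in 11 HFD libraries and 1127 ± 133 CPM in 11 NCD libraries (-0.33 ± 0.054, edgeR adjusted p = 5.53e-04). Among the killer lectin relatives of Klrg1, 3 of 9 tested genes were lower and none higher by edgeR, all at low levels. Klrk1 averaged 3.52 ± 4.45 CPM with HFD and 16.6 ± 12.0 CPM with NCD (-2.55 ± 0.51, edgeR adjusted p = 0.00624). Klrb1c, encoding NK1.1, averaged 0.547 ± 0.689 CPM with HFD and 7.58 ± 6.48 CPM with NCD (edgeR adjusted p = 6.82e-04). Klrb1c also stands on the list of natural killer and CD8 cell markers, of which it alone of 6 tested passed for the mean, being lower, and none was higher by edgeR. That list summed to 30.0 to 94.2 CPM in VAT with HFD and 36.1 to 83.8 CPM in VAT without HFD. Ncr1, a defining natural killer cell marker with no count in 8 of 25 VAT libraries, was lower with HFD at week 8 (edgeR adjusted p = 0.0160). The part of these cells in the result was not tested. Klrg1 was at -0.086 for the mean and did not pass.

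In spleen, Areg alone passed the mean diet test by edgeR and limma voom, and it had no adjusted p in DESeq2. Areg had 10, 25 and 7 counts at HFD week 2 and 3, 0 and 0 counts at NCD week 2. It had 9, 12 and 13 counts at HFD week 4 and 5 and 0 counts at NCD week 4. At week 8 it had 61, 19 and 24 counts with HFD and 5, 10 and 18 counts with NCD, and within each of these 3 weeks every HFD library lay above every NCD library on the CPM scale. At week 16 there were 66, 26 and 19 counts with HFD and 33, 0 and 15 counts with NCD, which overlapped. None of 12 HFD libraries and 4 of 11 NCD libraries had no Areg count. Pooled over weeks, 291 counts with HFD and 89 with NCD gave a rate 3.37 times higher with HFD (95% exact interval 2.65 to 4.32). The interval covers counting error only, and reads made after PCR are not independent molecules. By week the ratio was 17.2 at week 2 (5.51 to 86.9, against 3 counts), 5.06 at week 4 (1.97 to 16.6), 3.13 at week 8 (2.10 to 4.78) and 2.74 at week 16 (1.94 to 3.93).

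Across libraries, the mean spleen diet effect on Areg was 2.25 ± 0.53 (edgeR adjusted p = 0.0349), against 0.933% of genes called, or 137 genes, a count that ranged from 16 to 283 without 1 library. The fitted value depends on how counts of 0 are treated. The call was lost on leaving out any 1 of 11 libraries (edgeR adjusted p up to 0.117), or week 4 or week 16 (0.0696 and 0.0695). It was also lost with the mean of the activation and stress genes as a covariate (edgeR adjusted p = 0.235), where 3 genes were called in all. Il1rl1 averaged 43.4 ± 16.1 CPM in 12 spleen libraries with HFD and 26.3 ± 12.4 CPM in 11 with NCD, a difference of 0.78 ± 0.22 that missed the threshold in edgeR (adjusted p = 0.0879) and passed it in DESeq2 (0.0117). Klrg1 averaged 238 ± 90.2 CPM with HFD and 160 ± 89.8 CPM with NCD (0.62 ± 0.27, edgeR adjusted p = 0.306). Gata3 and Il1rap overlapped between diets in each week, and Myd88 stood apart once, at 90.4 to 99.0 CPM with HFD and 71.3 to 87.3 CPM with NCD at week 2. Il1rl1 stood apart at week 4, at 21.4 to 54.4 CPM with HFD and 14.1 to 19.8 CPM with NCD. So did Klrg1, at 157.6 to 255.6 CPM with HFD and 86.4 to 155.8 CPM with NCD. In spleen too, the share of all genes that separate in this way was not counted. No member passed in a single week by edgeR, DESeq2 or limma voom, against 0.0272% of genes called by edgeR at week 2, 1.24% at week 4, 0% at week 8 and 0% at week 16. DESeq2 gave an adjusted p for 5 of the 6 at weeks 2 and 16. The week 4 share stands for 182 genes, and leaving out 1 library gave 0 to 268. At weeks 8 and 16, 716 and 975 genes were below an unadjusted p of 0.05, and of the members 1 was at week 2, 1 at week 8 and none at the other weeks. DESeq2 called 1 gene at week 8 and 21 at week 16, and limma voom none. Other tissue Treg genes moved with the mean diet effect in spleen, 4 of 19 tested being higher (Icos, Ccr8, Batf and Nfil3) and none lower by edgeR, list median 0.52, and their part in the Areg result was not tested. Week 16 against week 0 of NCD in spleen called none of the members in edgeR, DESeq2 or limma voom (0.654% of genes by edgeR), with none below an unadjusted p of 0.05.

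Whether the diet effect differed between tissues was tested as VAT minus spleen. Over the mean of 4 weeks (2.44% of genes called), Areg differed by -2.13 ± 0.57 (edgeR adjusted p = 0.0359), since its diet effect was larger in spleen, and Il1rl1 was at -0.94 ± 0.27 (0.0518). At week 16 (4.46% of genes called) Areg differed by -2.70 ± 0.75 and Il1rl1 by -2.05 ± 0.53 (edgeR adjusted p = 0.0299 and 0.0165). Klrg1 was at -1.36 (edgeR adjusted p = 0.222), its spleen libraries ranging from 81.5 to 415 CPM within NCD week 16 alone. Areg missed the threshold in limma voom in both tests (adjusted p = 0.332 and 0.404), and its edgeR call held in 34 of 45 fits without 1 library for the mean and 5 of 11 at week 16 (adjusted p up to 0.106 and 0.260). At week 16 the Il1rl1 call held in 7 of 11 such fits, and was lost without either VAT NCD library, spleen NCD replicate 3 or spleen HFD replicate 2 (edgeR adjusted p up to 0.0663).

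In culture, IFNα was set against control with IL-33 and IL-2 in both arms, and 21.7% of 12604 genes were called. Gata3 was higher with IFNα and Klrg1 and Areg were lower, while the receptor, co-receptor and adaptor genes did not pass. Gata3 was at 2045 and 2280 CPM with IFNα and 1664, 1678 and 1697 CPM without (0.41 ± 0.068, edgeR adjusted p = 1.73e-04). Klrg1 was at 542 and 594 CPM with IFNα and 1035, 974 and 930 CPM without (-0.74 ± 0.079, edgeR adjusted p = 5.03e-07). For neither gene did the arms overlap. Areg was at 14.95 and 13.6 CPM with IFNα and 20.03, 40.7 and 24.3 CPM without (-0.96 ± 0.26, edgeR adjusted p = 0.0142). Without control replicate 2, its highest control, or without either IFNα culture, Areg missed the threshold (edgeR adjusted p up to 0.142). Il1rl1 was at 811 and 835 CPM with IFNα and 992, 873 and 947 CPM without (-0.15 ± 0.079, edgeR adjusted p = 0.209), and without control replicate 2 it passed (-0.22, 0.0490). Il1rap was at 10.5 and 9.76 CPM with IFNα and 11.2, 9.73 and 12.7 CPM without, and Myd88 at 126 and 127 CPM with IFNα and 127, 131 and 139 CPM without. Foxp3 was at 633 and 643 CPM with IFNα and 1357, 1474 and 1436 CPM without (-1.11, edgeR adjusted p = 2.82e-10), in cells sorted on a reporter of that gene, and its part in the member results was not tested.

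The list counts in culture are to be read against the 21.7% of all genes called. Of the relay genes 6 of 21 were higher with IFNα and none lower by edgeR (list median 0.17 against 0.010 over all genes). Traf6, the ubiquitin ligase gene that acts after IRAK, was at 128 to 137 CPM with IFNα and 62.9 to 78.9 CPM without (1.00 ± 0.12, edgeR adjusted p = 2.41e-06). The inhibitor gene Irak3 was higher too, at 53.3 to 58.2 CPM with IFNα and 26.8 to 34.1 CPM without (0.91 ± 0.14, edgeR adjusted p = 9.03e-05). In the IL-1 family Il1r2 (1.98 ± 0.21) and Il18r1 (1.06 ± 0.20) were higher, of 5 tested, as both were with HFD at week 16 in VAT. Other pathway genes called in both contrasts went opposite ways. Irak3 was at 0.91 with IFNα and -1.33 with HFD at week 16, Nfkbia at 0.30 and -0.85, and Ptpn6 at -0.77 and 0.74. Il1r2 was at 107 to 114 CPM with IFNα and 19.9 to 37.6 CPM without. Of 7 tested amphiregulin relatives and receptors Hbegf (-1.19 ± 0.25) and Tgfa (-1.83 ± 0.57) were lower, with Areg, and none was higher by edgeR. Among 9 GATA and type 2 genes Il4 (2.18 ± 0.43), Il5 (0.92 ± 0.30) and Il4ra (0.29 ± 0.076) were higher and Gata1 lower (-1.14 ± 0.15). The cytokine genes were scarce, Il4 at 6.51 to 7.37 CPM with IFNα and 1.21 to 2.29 CPM without. Of 3 tested Klrg1 relatives Ptpn6 was lower (-0.77 ± 0.10).

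**Figure D3:**
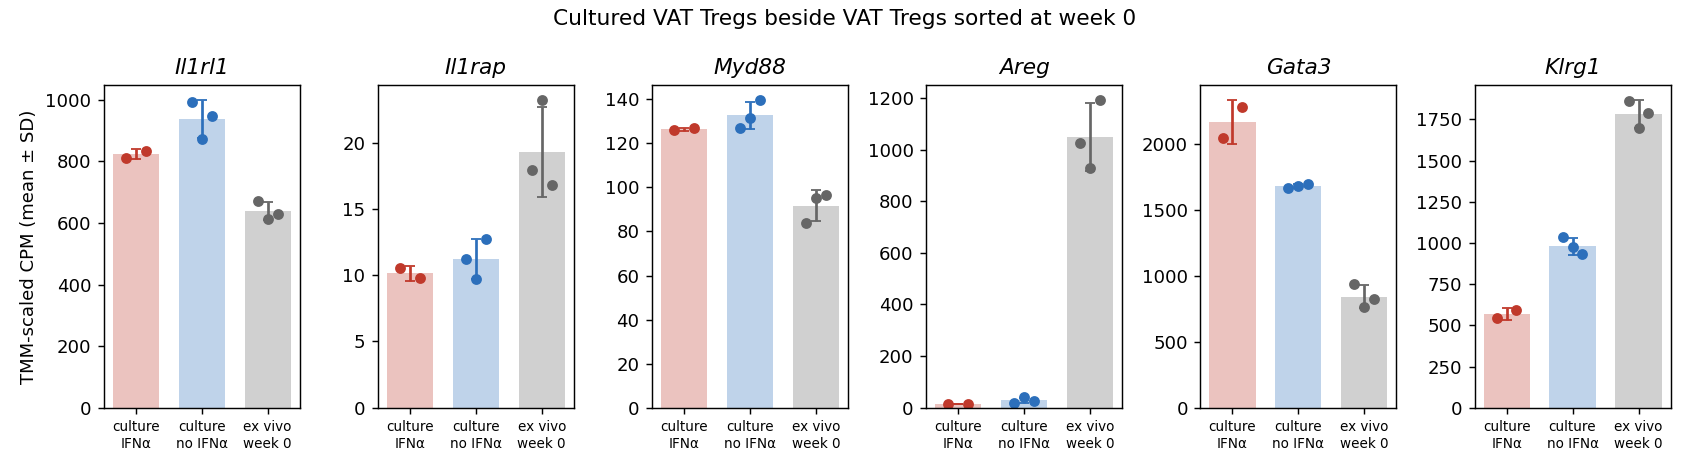
TMM-scaled CPM of the 6 genes in cultures with IFNα (n = 2), cultures without it (n = 3) and VAT Tregs sorted at week 0 (n = 3), with points for libraries and bars for mean ± SD. Areg is at 13.6 to 40.7 CPM in culture and 928 to 1191 CPM ex vivo, while Gata3 is above its ex vivo level in every culture.

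Control cultures were also set beside VAT Tregs sorted at week 0, a contrast in which mouse line, IL-33 injection, sort and culture differ together and cannot be told apart (44.7% of genes called). Areg was at 20.03, 40.7 and 24.3 CPM in culture, against 1027, 928 and 1191 CPM ex vivo, and fell by 5.19 ± 0.43 on the log2 scale (edgeR adjusted p = 9.54e-13). Il1rl1 did not go with it, at 992, 873 and 947 CPM in culture and 671, 613 and 629 CPM ex vivo (0.56 ± 0.32, edgeR adjusted p = 0.159). In these values the receptor gene was above its ex vivo range in each culture although the amphiregulin gene was far below its own. Gata3 was higher in culture (1.00 ± 0.19, edgeR adjusted p = 4.47e-05), and so was Myd88, at 127, 131 and 139 CPM in culture and 83.6, 95.0 and 96.3 CPM ex vivo (0.53 ± 0.14, 0.00186). Il1rap was lower, at 11.2, 9.73 and 12.7 CPM in culture and 18.0, 23.2 and 16.8 CPM ex vivo (-0.79 ± 0.28, edgeR adjusted p = 0.0181), a call lost without week 0 replicate 2 or control replicate 2 (up to 0.104). Klrg1 was at 1035, 974 and 930 CPM in culture and 1864, 1697 and 1787 CPM ex vivo (-0.86 ± 0.37, edgeR adjusted p = 0.0586), and it passed in DESeq2 and limma voom. Immediate early and heat shock genes again moved with the contrast, 2 of 19 higher and 16 lower in culture, with sums of 4331 to 4940 CPM in control cultures and 23859 to 26224 CPM ex vivo. Their part in the result was not tested. Their mean was 4.57 to 4.90 log2 CPM in control cultures and 7.84 to 8.22 ex vivo, without overlap, so it can hardly be told apart from the contrast. With it as a covariate 429 genes were called. Areg was then at -2.14 (edgeR adjusted p = 0.478) and Myd88 changed sign, to -0.37 (0.788).

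Across the 25 VAT libraries, Il1rl1, Gata3 and Klrg1 varied together, and Areg followed them less closely within groups. These correlations are descriptions of log2 CPM over libraries that share groups and group differences. Il1rl1 and Klrg1 had a Pearson r of 0.84 and a Spearman rho of 0.86 (0.81 without the 2 libraries farthest from the median), and an r of 0.48 after group means were removed. Il1rl1 and Gata3 had an r of 0.77 and a rho of 0.77 (0.73 without those 2), and 0.75 within groups. Gata3 and Klrg1 had an r of 0.70 and a rho of 0.69, and 0.77 within groups. For Il1rl1 and Areg the r was 0.67 (rho 0.70) and 0.23 within groups, and for Areg and Klrg1 the r was 0.55 (rho 0.62) and -0.25 within groups. Libraries of a group that were high in Gata3 thus tended to be high in Il1rl1 and Klrg1, with no such tendency for Areg (r = -0.11 with Gata3 within groups). The mean of these activation and stress genes had an r of 0.84 with Il1rl1 (rho 0.72, 0.67 within groups), 0.75 with Klrg1 (rho 0.63, 0.22 within groups) and 0.64 with Areg (rho 0.65, 0.37 within groups). Il1rap had no r above 0.39 with any other member. For Myd88 the r with Il1rl1 was -0.099, but within groups it was -0.53 with Il1rl1, -0.41 with Klrg1 and -0.39 with Gata3.

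**Figure D4:**
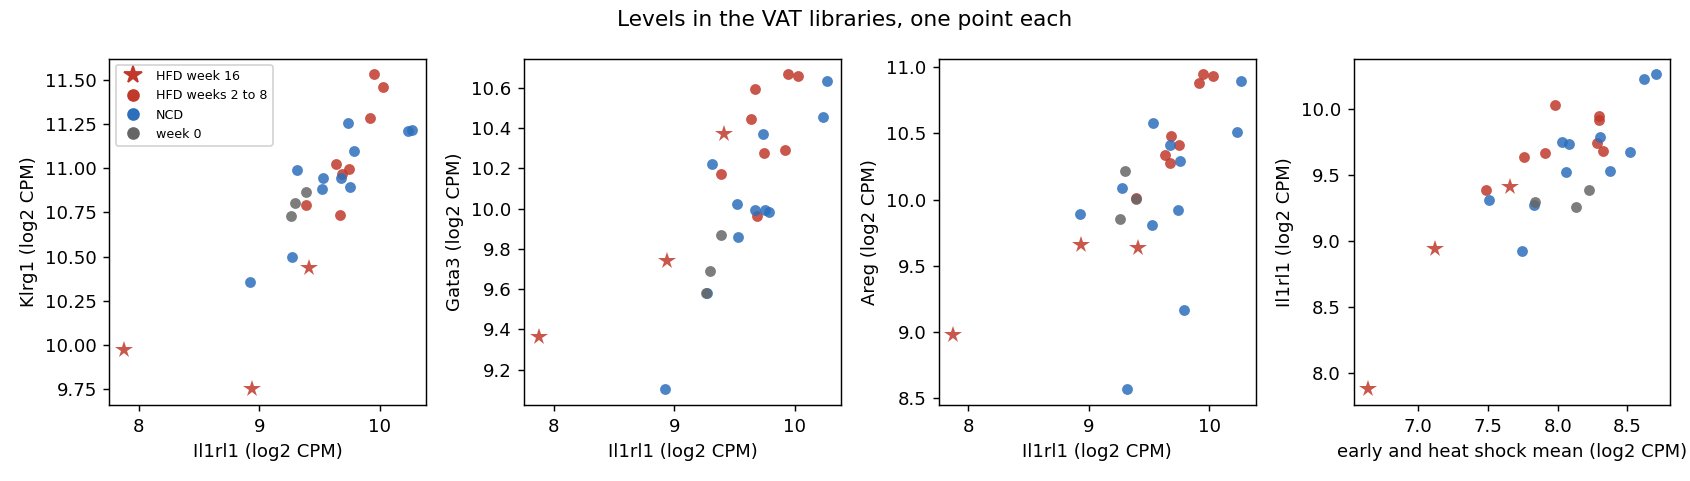
Log2 CPM of Klrg1, Gata3 and Areg against Il1rl1, and of Il1rl1 against the mean of 19 immediate early and heat shock genes, with 1 point for each of the 25 VAT libraries (HFD week 16 as stars). The HFD week 16 libraries, at 235, 681 and 491 CPM of Il1rl1, include the lowest Il1rl1 and the 2 lowest Klrg1 values. Those at 681 and 491 CPM lie within the Il1rl1 range of the other groups.

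Of 8548 genes compared over the same 25 VAT libraries, those most like Areg were Nfkbiz (r = 0.92) and Nfkbia (0.91), both induced by NF-κB and regulators of its targets, then Dgat1, the receptor-signal gene Nr4a1 and the kinase gene Map3k8 (0.86). Those most like Klrg1 were Ltb4r1, the leukotriene B4 receptor gene (0.96), Ccr2, a chemokine receptor gene (0.95), Mmp25 (0.93), Cish, a STAT5-induced inhibitor (0.92), and Ctsh (0.92). For Il1rl1 they were Jcad (0.91), Nebl, H1f2, Anxa1 and the activation marker Cd69 (0.90). Gata3 was most like the chemokine genes Cxcl2 (0.89) and Cxcl3, then Tspan31, Id2 and Cd200r1 (0.86). The closest to Il1rap was Adpgk (0.72) and to Myd88 Ube2l3 (0.71), so these 2 members had no partner as close as the other 4 did.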

How the data were processed

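The deposited table holds raw counts per gene symbol, which the authors made with STAR 2.7.3a and featureCounts on mm10, per the submitters' processing notes. The annotation release, strand setting and handling of multi-mapping reads are unknown: not given in the sources used here. Per the labels' protocols, 1000 cells gave each library, poly(A) cDNA was amplified, fragmented with Tn5 and amplified again for 18 cycles, and read as pairs of 38 bases.

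Counts were tested with edgeR 4.0.16 in R 4.3.3 (TMM factors, filterByExpr by group, robust quasi-likelihood F test of group means, Benjamini-Hochberg adjustment over all genes tested, threshold 0.05). VAT, spleen, both tissues and culture were fitted separately, as contrasts of groups with equal weight. DESeq2 1.42.0 and limma 3.58.1 (voom with quality weights), other scaling, filter, group choice and covariate settings, and leaving out single libraries or weeks were alternatives. The test code was checked on simulated data. Of the symbols, 96.36% matched GENCODE M21, used for positions, and promoters are from RefSeq. Of 52 pairs of replicates compared, none agreed within counting noise (lowest chi-square per degree of freedom 3.88).

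The members, gene lists and tests were chosen with earlier results of these data known, so they are not independent support for any pattern already seen. Besides the members, the text names up to 4 called genes of each pathway list with the smallest p in 4 comparisons, Foxp3 and Pparg as checks, and for each member the 5 most alike genes (Pearson r of log2 CPM, prior count 2, mean log2 CPM of at least 3). Marker genes were named beside their list's count.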

Additional observations from a re-analysis of the deposited data

Results flagged for a closer look

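The diet effect in VAT differed between weeks, by a test of the difference itself. The week 16 effect minus the week 2 effect, each HFD over NCD, was -1.96 for Il1rl1 (edgeR adjusted p = 0.00130), -2.20 for Areg (0.00472) and -1.56 for Klrg1 (9.41e-05). At week 2 these genes were at 0.60, 0.94 and 0.44, and at week 16 at -1.37, -1.25 and -1.12, on the log2 scale. With the mean of the activation and stress genes as a covariate none of the 3 calls held (edgeR adjusted p = 0.842, 0.678 and 0.279). In that fit 3 genes were called in all, against 1032 without the covariate.

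The diet effect was also called different between tissues, by the same kind of test. Over the mean of the 4 weeks, the effect in VAT minus that in spleen was -2.13 for Areg (edgeR adjusted p = 0.0359), with counts near 0 in spleen. At week 16 it was -2.05 for Il1rl1 (edgeR adjusted p = 0.0165) and -2.70 for Areg (0.0299). Areg missed the threshold in limma voom in both tests (adjusted p = 0.332 and 0.404), and without 1 library the week 16 calls held in 7 of 11 fits for Il1rl1 and 5 of 11 for Areg. Groups of 3 or fewer libraries were not searched for single outlying libraries.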

How the results depend on the processing

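Of 2270 member values under alternatives, 2136 kept their side of the threshold, of which 82 changed sign with neither value called, 82 lost a call, 51 gained one and 1 reversed. The reversed value was Myd88 in control culture against ex vivo VAT, -0.37 with the activation and stress gene mean as a covariate. That covariate did not overlap between VAT and spleen libraries. It also took VAT against spleen without HFD to 2.25 for Il1rl1, 6.10 for Areg, 0.47 for Gata3 and 2.06 for Klrg1, with 4 genes called. It took VAT week 16 to -0.24 for Il1rl1, -0.43 for Areg and -0.83 for Klrg1, with 92 genes called, the mean VAT diet effect to 272 genes, and Areg under IFNα to -0.80, and each of these members lost its call. On the week 16 groups alone, Il1rl1 was at -1.36 (call lost) and 789 genes were called. For the mean VAT effect, leaving out week 4 gave 928 genes and a call for Klrg1 (-0.31), and leaving out week 16 gave 122. Leaving out single libraries at VAT week 16 gave -1.44 to -1.06 for Areg, -0.98 to -0.45 for Gata3 and 643 to 1273 genes, and for the mean VAT effect 372 to 657 genes. In culture it gave -0.22 to -0.10 for Il1rl1 and -1.15 to -0.62 for Areg. The cause was not tested. Replicate numbers were not taken to pair the samples, since 6 of 47 same-number pairs correlated above 0.1 (r -0.191 to 0.361). Of those 6, 3 were the pairs of VAT HFD week 16 with spleen HFD week 16 (0.361, 0.142 and 0.286), and with the replicate block the week 16 tissue difference was -2.06 for Il1rl1 and -2.69 for Areg, both still called. With the replicate block, Klrg1 in culture against ex vivo VAT passed (-0.87, edgeR adjusted p = 0.0400), 21 genes were called at VAT week 2 and 5 at week 4, and no other member call changed. Counts of genes called moved most where few passed: DESeq2 and no filter on low counts gave 70 and 162 at VAT week 2 against 8 in edgeR, 61 and 115 at week 4 against 3, 423 and 465 at week 8 against 189, and in spleen 37 and 85 at week 2 against 4, 307 and 305 at week 4 against 182, 1 and 26 at week 8 against 0, 21 and 26 at week 16 against 0, and 386 and 483 for the mean against 137. For NCD week 16 against week 0 they gave 342 and 399 in VAT against 101 and 270 and 273 in spleen against 96, and for the mean difference between tissues 631 and 797 against 380. Depth limits spleen Areg, at 0 to 66 counts per library.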
